A study of Mus musculus with 9 samples.

Results

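The 55 mouse genes described here encode collagen and laminin chains. They were chosen by symbol: every entry written Col, a number, a and a number, and every entry written Lama, Lamb or Lamc and a number. The rule took 44 collagen and 11 laminin genes out of 18639 gene entries and used no measured value. RNA was measured by bulk sequencing of tumour tissue taken from mouse brains at day 5 after resection of a tumour of CT2A, a mouse glioma cell line. The first of 3 groups was treated with ThTC, CT2A cells by the series title, which release IFNβ (interferon-beta) and GM-CSF. The second was treated with GFP-TC, described as control cells, and the third with sECM only. Each group held 3 libraries, named here by group and number. The labels give no age, strain or sex, do not spell out sECM and do not say whether it also carried the cells of the other groups. Whether each library is a different animal is not stated either. The p-values below therefore measure only the spread between these libraries, which may be technical.

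Collagens are triple helices of 3 chains. Fibrillar collagens form the cables of connective tissue, collagen IV forms the sheet-like network of basement membranes, and collagen VI forms beaded filaments between them. Laminins are trimers of an α, a β and a γ chain. Many of them, though not all, are cross-shaped, polymerise on cell surfaces and start the assembly of a basement membrane. In the healthy brain both kinds of protein lie mainly around blood vessels and in the meninges, and glioma cells, vessels and mural cells can all make them. In bulk tissue, fewer cells of a type and less RNA per cell cannot be told apart.

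Expression was given as TPM, transcript abundance corrected for gene length and scaled to a common library total, so levels can be set side by side between genes. These values keep no record of how many reads lie behind them. ThTC 3 and GFP-TC 3 stood apart by genes of normal brain cells: the summed TPM of 8 oligodendrocyte markers was 2416 and 1997 in these libraries, against 159 to 714 in the other 7. They were the highest 2 libraries for 23.9% of all tested genes but for 5.71% of the tested collagen and laminin genes, namely Col9a2 and Col9a3. Endothelial markers (10 genes) summed to 113 to 219.6 TPM and none of them was at 0 in any library.

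A gene was tested if it reached 1 TPM in at least 3 of the 9 libraries, which 35 members did (29 collagen and 6 laminin genes) among 13829 tested genes. The other 20 members averaged 0.0311 to 0.791 TPM, and their highest single value was 1.56 TPM. Averaged over the 9 libraries, 9 members lay at 100 TPM or more, 13 between 10 and 100, 10 between 1 and 10, and 23 under 1. Together the 55 genes made up 0.283% to 0.501% of all TPM. Col3a1 alone held 29.3% to 34.8% of that share, and the 5 highest genes held 70.3% to 73.9%.

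**Figure D1:**
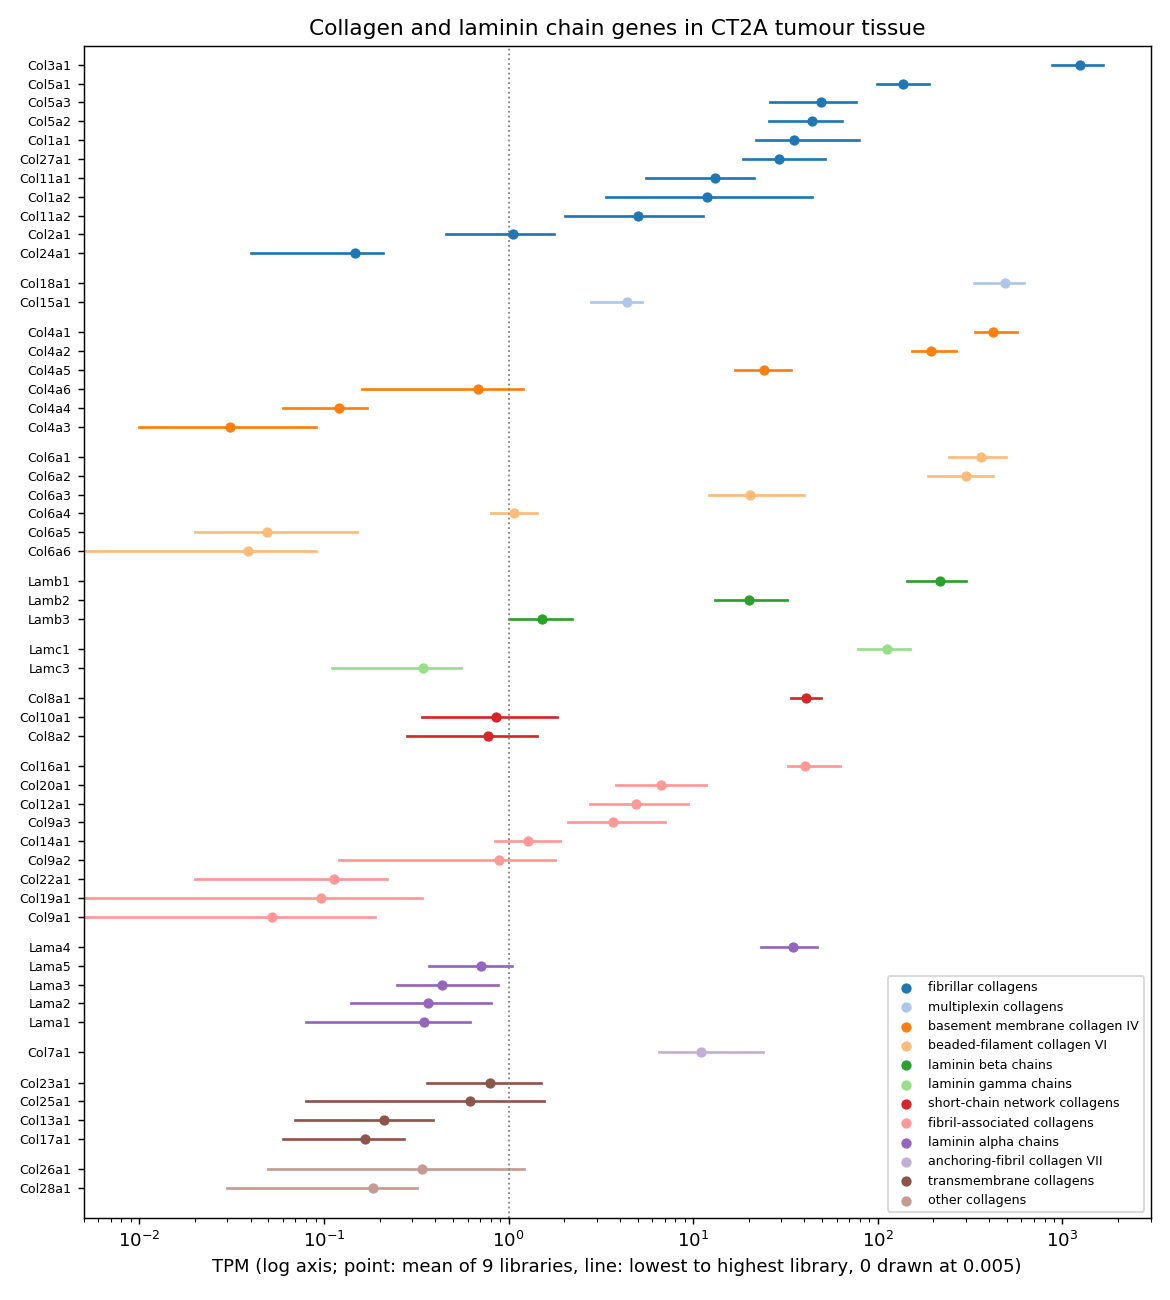
Mean TPM over the 9 libraries for 54 of the 55 collagen and laminin genes, on a log axis, with genes grouped by family, lines from the lowest to the highest library (a value of 0 drawn at the left edge) and a dotted line at 1 TPM. Col3a1 stood highest at 1244 TPM, and 23 genes averaged under 1 TPM.

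Promoter windows of 250 bases before the gene's start were available for 40 members (44 windows, from RefSeq's annotation of GRCm38.p6). The windows of 3 members are shown because Col3a1 was the most abundant chain, and Col18a1 and Col6a1 had the smallest p among members in a comparison with ThTC. Each is written 5′ to 3′ on the gene's own strand, and capitals mark matches on either strand to the searched letters.
Col3a1 (chr1:45311288-45311537, plus strand): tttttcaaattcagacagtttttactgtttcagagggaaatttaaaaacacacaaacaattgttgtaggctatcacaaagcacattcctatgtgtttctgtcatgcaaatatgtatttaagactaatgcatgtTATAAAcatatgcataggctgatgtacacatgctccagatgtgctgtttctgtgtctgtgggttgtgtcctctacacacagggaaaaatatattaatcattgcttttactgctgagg
Col18a1 (chr10:77166531-77166780, minus strand): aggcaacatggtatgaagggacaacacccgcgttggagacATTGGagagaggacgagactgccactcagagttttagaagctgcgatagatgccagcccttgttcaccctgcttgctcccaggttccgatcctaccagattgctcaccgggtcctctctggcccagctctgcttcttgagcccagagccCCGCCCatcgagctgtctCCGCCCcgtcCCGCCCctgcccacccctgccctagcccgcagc
Col6a1 (chr10:76726045-76726294, minus strand): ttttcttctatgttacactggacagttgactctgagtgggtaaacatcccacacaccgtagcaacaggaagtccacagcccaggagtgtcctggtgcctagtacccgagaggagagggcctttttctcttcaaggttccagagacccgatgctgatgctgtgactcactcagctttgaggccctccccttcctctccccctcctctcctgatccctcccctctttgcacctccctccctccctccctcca
In the Col3a1 window the capitals mark a TATAAA match starting 117 bases before the gene's start. In the Col18a1 window they mark a CCAAT match, then 3 matches to the GC box letters GGGCGG, all on the opposite strand. The Col6a1 window held none of the 5 motifs searched. Over all members, GGGCGG was found in 54.5% of windows (24 of 44), against 32.7% of the 32851 windows of all genes, TATAAA in 11.4% against 12.4%, and CCAAT in 31.8% against 33.8%. The core letters of the interferon-stimulated response element, GAAA, any 2 bases and GAAA again, were found in 0 of 44 windows, against 2.98% of all windows. The gamma-activated site letters TTCNNNGAA were found in 6.82%, against 7.02%. Both strands were searched, and a match is a description of letters, not of a bound factor.

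Among the fibrillar collagens, Col3a1, the only chain of collagen III, stood far above the rest. It had 1069, 1136 and 875 TPM in the ThTC libraries, 1309.7, 1654 and 1214 TPM in the GFP-TC libraries, and 1138, 1401 and 1403 TPM in the sECM only libraries. All 3 ThTC values lay below all 6 others, by a narrow margin against sECM only. Its mean over the libraries was above that of 99.4% of all gene entries. Col1a1 and Col1a2, the chains of collagen I, were far lower. Col1a1 had 24.7, 78.6 and 21.8 TPM for ThTC, 29.7, 29.0 and 28.01 TPM for GFP-TC, and 26.95, 31.1 and 44.7 TPM for sECM only. Col1a2 had 3.39, 44.2 and 11.8 TPM for ThTC, 4.19, 6.39 and 9.20 TPM for GFP-TC, and 10.8, 6.48 and 9.93 TPM for sECM only. ThTC 2 was the highest library for both chains, while the other ThTC libraries lay within or near the range of the other groups.

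The ratio of Col3a1 to Col1a1 was 14.5 in ThTC 2 and 31.4 to 57.0 in the other 8 libraries. Without ThTC 2, the mean of Col1a2 over the libraries was 7.77 TPM instead of 11.8. Some genes of contractile or matrix-making cells were also high in ThTC 2 and others low. Tagln, a smooth muscle actin-binding protein, had 60.2 TPM there, against 9.72 and 45.5 TPM in the other ThTC libraries. Acta2, smooth muscle actin, had 48.2 TPM there, against 19.4 and 31.3 TPM. Dcn, a proteoglycan of fibroblasts, had 48.4 TPM there, against 25.1 and 20.5 TPM. The mural markers Cspg4 and Pdgfrb, at 18.5 and 31.9 TPM, were at their lowest of the 9 libraries in ThTC 2, and 2 of the 10 mural markers were at their highest there. The summed mural list in ThTC 2 (177.5 TPM) was nonetheless within 104.7 to 182.4, the range of the other 8 libraries, as was the fibroblast list (337 TPM against 218 to 423). Their part in the collagen I values was not tested.

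**Figure D2:**
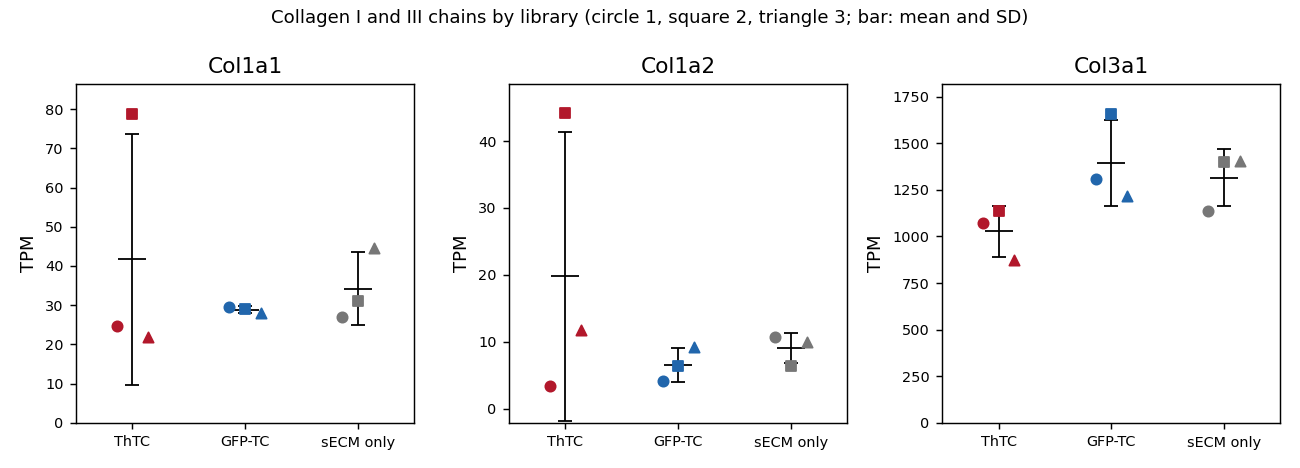
TPM of Col3a1, Col1a1 and Col1a2 in each library, in the order ThTC, GFP-TC and sECM only, with a separate linear axis per gene and bars for the group mean and SD (n = 3). Col3a1 was lowest in the ThTC libraries, and ThTC 2 stood above the rest at 78.6 TPM for Col1a1 and 44.2 TPM for Col1a2.

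Collagen V chains, which join collagen I and III fibrils and limit their width, were intermediate. Col5a1 had 119.6, 120.1 and 99.4 TPM for ThTC, 126, 189.9 and 147 TPM for GFP-TC, and 131, 134 and 159 TPM for sECM only. Col5a3 had 39.0, 26.2 and 40.9 TPM for ThTC, 41.2, 60.5 and 59.7 TPM for GFP-TC, and 43.7, 54.5 and 76.0 TPM for sECM only. For both chains the 3 ThTC values lay below every value of the other groups, for Col5a3 by under 1 TPM against GFP-TC 1. Col5a2 had 38.4, 43.0 and 25.7 TPM for ThTC, 43.6, 64.2 and 48.3 TPM for GFP-TC, and 41.7, 52.4 and 39.7 TPM for sECM only, so ThTC overlapped sECM only. Col24a1 was the lowest fibrillar chain, at a mean of 0.148 TPM.

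Col4a1 and Col4a2, the widely used chains of collagen IV, had the steadiest ratio of the 11 chain ratios computed. Col4a1 had 339, 362.5 and 335 TPM for ThTC, 409.9, 569.95 and 410.8 TPM for GFP-TC, and 402, 452 and 514 TPM for sECM only. Col4a2 had 159, 168 and 154 TPM for ThTC, 182, 264 and 201 TPM for GFP-TC, and 184, 204 and 234 TPM for sECM only. For both genes the ThTC libraries lay below all others, and GFP-TC 2 was the highest. The ratio of Col4a1 to Col4a2 was 2.04 to 2.25 in all 9 libraries. The genes lie head to head on chromosome 8 of GRCm38.p6, Col4a1 on the minus strand (11198423 to 11312889) and Col4a2 on the plus strand (11312805 to 11449287), and the annotated genes overlap at their starts. The sources used here do not say whether strand was used in counting, so reads within that overlap could belong to either gene. The other collagen IV chains were lower: Col4a5 averaged 24.1 TPM, and Col4a3, a chain known from kidney and lung, was the lowest member of all at 0.0311 TPM.

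Col18a1 was the second most abundant member. It encodes a basement membrane collagen with heparan sulfate chains, whose end fragment is endostatin. It had 408, 364.5 and 333 TPM for ThTC, 549.6, 570.5 and 437 TPM for GFP-TC, and 509, 612 and 621 TPM for sECM only. All 3 ThTC values lay below all 6 others. Its relative Col15a1 was low, at 2.94, 4.69 and 4.56 TPM for ThTC, 2.78, 4.04 and 4.66 TPM for GFP-TC, and 5.27, 5.20 and 5.22 TPM for sECM only. The 3 sECM only values lay above all 6 others.

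The 3 main collagen VI chains form a trimer that links cells to the surrounding matrix. Col6a1 had 309, 243 and 266 TPM for ThTC, 345, 445 and 418 TPM for GFP-TC, and 369, 386 and 494 TPM for sECM only. Col6a2 had 258, 187 and 223 TPM for ThTC, 297, 334 and 364 TPM for GFP-TC, and 303, 328 and 419 TPM for sECM only. Col6a3 had 14.6, 12.1 and 12.5 TPM for ThTC, 19.5, 22.8 and 19.2 TPM for GFP-TC, and 16.9, 25.3 and 39.98 TPM for sECM only. For all 3 chains, every ThTC library lay below every other library. Col6a1 was 1.15 to 1.33 times Col6a2 but 12.4 to 21.8 times Col6a3, and the lowest of those ratios to Col6a3 was in sECM only 3, where Col6a3 was highest. Col6a6 was near 0, at a mean of 0.0389 TPM.

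In the laminin family 1 chain of each kind dominated. Lamb1, a β chain found in most vessels, had 192, 156 and 143 TPM for ThTC, 235, 274 and 202 TPM for GFP-TC, and 197, 244 and 299 TPM for sECM only. Lamc1, the γ chain of most laminins, had 97.0, 86.7 and 78.3 TPM for ThTC, 109.8, 135 and 113 TPM for GFP-TC, and 105, 129.5 and 150.2 TPM for sECM only. Lama4, the α chain of endothelial and mural basement membranes, had 26.3, 30.0 and 23.3 TPM for ThTC, 37.1, 47.1 and 36.6 TPM for GFP-TC, and 30.8, 37.3 and 42.7 TPM for sECM only. In all 3 chains the ThTC libraries lay below the other groups, although for Lama4 ThTC 2 and sECM only 1 were under 1 TPM apart. Lamb1 was 1.80 to 2.14 times Lamc1 in the 9 libraries, and 7.80 to 13.5 times Lamb2.

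Lamb2, a β chain of synapses, kidney and mature vessels, had 15.5, 13.1 and 18.4 TPM for ThTC, 18.3, 32.3 and 21.6 TPM for GFP-TC, and 17.8, 18.04 and 26.6 TPM for sECM only, so ThTC overlapped both. Among chains of epithelial laminins, Lamb3 had at most 2.20 TPM, and Lama3 averaged 0.434 TPM. Lama5, the other α chain of vessel walls, had 0.37, 0.51 and 0.73 TPM for ThTC, 0.82, 1.04 and 1.04 TPM for GFP-TC, and 0.57, 0.45 and 0.81 TPM for sECM only. Lama4 was 31.9 to 82.9 times Lama5. Lama1, Lama2 and Lamc3 stayed under 1 TPM in every library, with means of 0.347, 0.368 and 0.343 TPM.

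**Figure D3:**
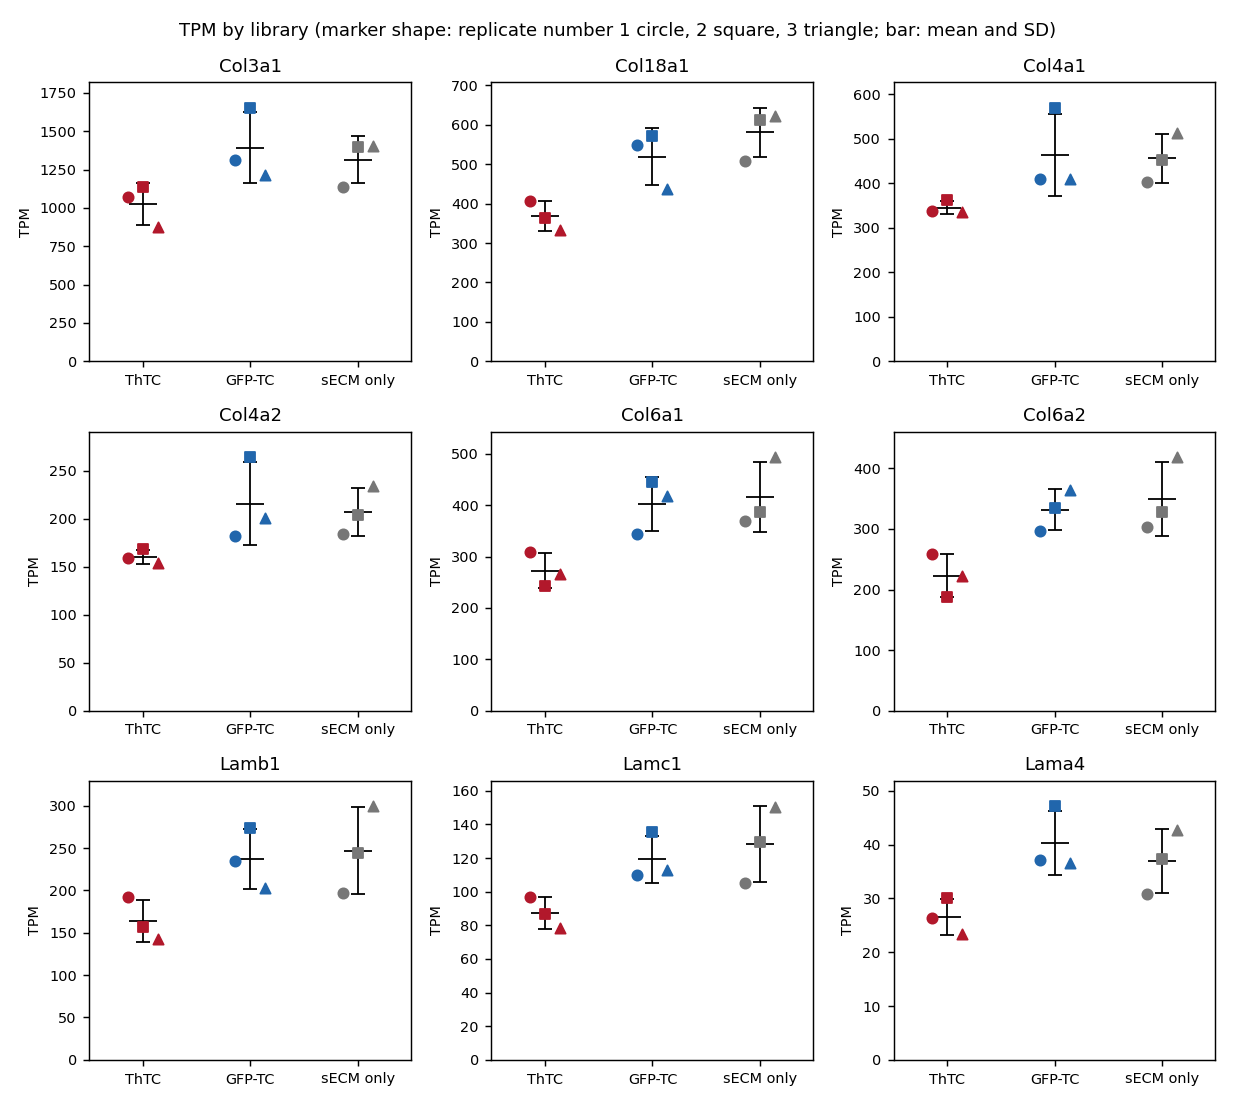
TPM of 9 abundant collagen and laminin chains in each of the 9 libraries, ThTC first, then GFP-TC and sECM only. The chains were picked with earlier results known, and Col1a1 and Col1a2, which overlapped between the groups, are not among them. Bars give the group mean and SD (n = 3). In all 9 panels the 3 ThTC points lie lowest, and GFP-TC 2 or sECM only 3 is the highest point. Of all tested genes, 16.9% were lower with no overlap against GFP-TC and 12.1% against sECM only. After median-of-ratios scaling Col3a1, Col4a1, Col18a1, Lamb1 and Lamc1 overlapped with GFP-TC, and Col3a1, Lama4 and Lamb1 with sECM only.

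The remaining families were lower. Col8a1, a short-chain network collagen of vessel walls and cornea, had 33.7 to 49.4 TPM and overlapped between the groups, while Col8a2 averaged 0.774 TPM. Among the 9 fibril-associated collagens, Col16a1 was the highest at a mean of 40.5 TPM and Col9a1 the lowest at 0.0522 TPM. Col7a1, the anchoring fibril collagen of skin, had 8.37, 6.51 and 6.71 TPM for ThTC, 10.4, 23.98 and 11.5 TPM for GFP-TC, and 8.85, 9.49 and 13.1 TPM for sECM only. Every ThTC value was below those of the other groups, and GFP-TC 2 stood far above the rest. None of the 4 transmembrane collagens passed the filter on low values. Their means lay between 0.168 TPM (Col17a1) and 0.791 TPM (Col23a1). The 2 collagens left, Col26a1 and Col28a1, averaged 0.338 and 0.184 TPM.

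The comparison of ThTC with GFP-TC sets the secreting cells against the control cells. Collagen and laminin genes had lower levels with ThTC: their summed TPM was 3288, 3264 and 2834 in the ThTC libraries, against 3942, 5006 and 3953 in the GFP-TC libraries. The groups did not overlap, and the ThTC mean was 3129 ± 255 TPM against 4300.2 ± 611 TPM (SD, n = 3 each). The sum without Col3a1 was 2218, 2127 and 1959 TPM for ThTC, against 2632, 3352 and 2739 TPM for GFP-TC. The laminin genes alone summed to 341, 296 and 273 TPM for ThTC, against 412, 501 and 384 TPM for GFP-TC. No single member passed the test across all genes: limma called 0 of 35 members and 0% of all tested genes at an adjusted p of 0.05.

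Of the 35 tested members, 31 had a lower mean TPM with ThTC than with GFP-TC (88.6%), as did 65.2% of all tested genes. The 3 ThTC values lay below all 3 GFP-TC values for 16 members (45.7%), against 16.9% of all tested genes, and above them for 0 members, against 2.20%. The 16 were the collagen III, V, VI (Col6a1, Col6a2 and Col6a3), VII and XVIII chains, Col4a1, Col4a2, Lama4, Lamb1 and Lamc1, and the fibrillar Col27a1 and fibril-associated Col14a1. At an unadjusted p of 0.05, limma had 17 members lower (48.6%) against 12.9% of all genes, and 0 higher against 2.03%. Without GFP-TC 2 the lower count was 5 (14.3%) against 4.30% of all genes, and without ThTC 3 it was 11 (31.4%) against 11.0%. With libraries of the same number taken as pairs, 8 of all tested genes were called (0.0578%) and 0 members.

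The median log2 fold change of the 35 members was −0.41, against −0.10 for all tested genes. Of the 22 members averaging 10 TPM or more, 15 were lower with no overlap (68.2%), against 19.5% of all genes at that level. By family, 3 of 4 tested collagen VI chains, 5 of 10 fibrillar chains, 2 of 4 collagen IV chains and 3 of 6 laminin chains were lower with no overlap, against 16.9% of all tested genes. After the median-of-ratios scaling described below these counts were 3, 3, 1 and 2, against 6.71% of all genes. Members with a higher mean with ThTC were Col1a2, Col1a1, Col10a1 and Col15a1, and all 4 overlapped with GFP-TC.

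GFP-TC 2 was the highest of the 9 libraries for 17 of 35 members (48.6%), against 27.1% of all tested genes, and ThTC 3 the lowest for 14 (40.0%), against 15.5%. When each library was rescaled to the median ratio of its genes, the median of all tested genes was 0.021 and that of the members −0.30. On that scale 10 members were lower with no overlap (28.6%) against 6.71% of all genes, and 0 were higher against 6.43%, while 28 had a lower mean (80.0%) against 45.6%. At an unadjusted p of 0.05, 7 members were lower by limma on that scale, against 3.92% of all genes. Over all tested genes the same scaling changed the split of genes with no overlap to 928 lower and 889 higher, against 2333 lower and 304 higher on the deposited scale. Col3a1, Col4a1, Col5a2, Col14a1, Col18a1, Lamb1 and Lamc1 overlapped after that scaling, and Lamb2 no longer did.

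**Figure D4:**
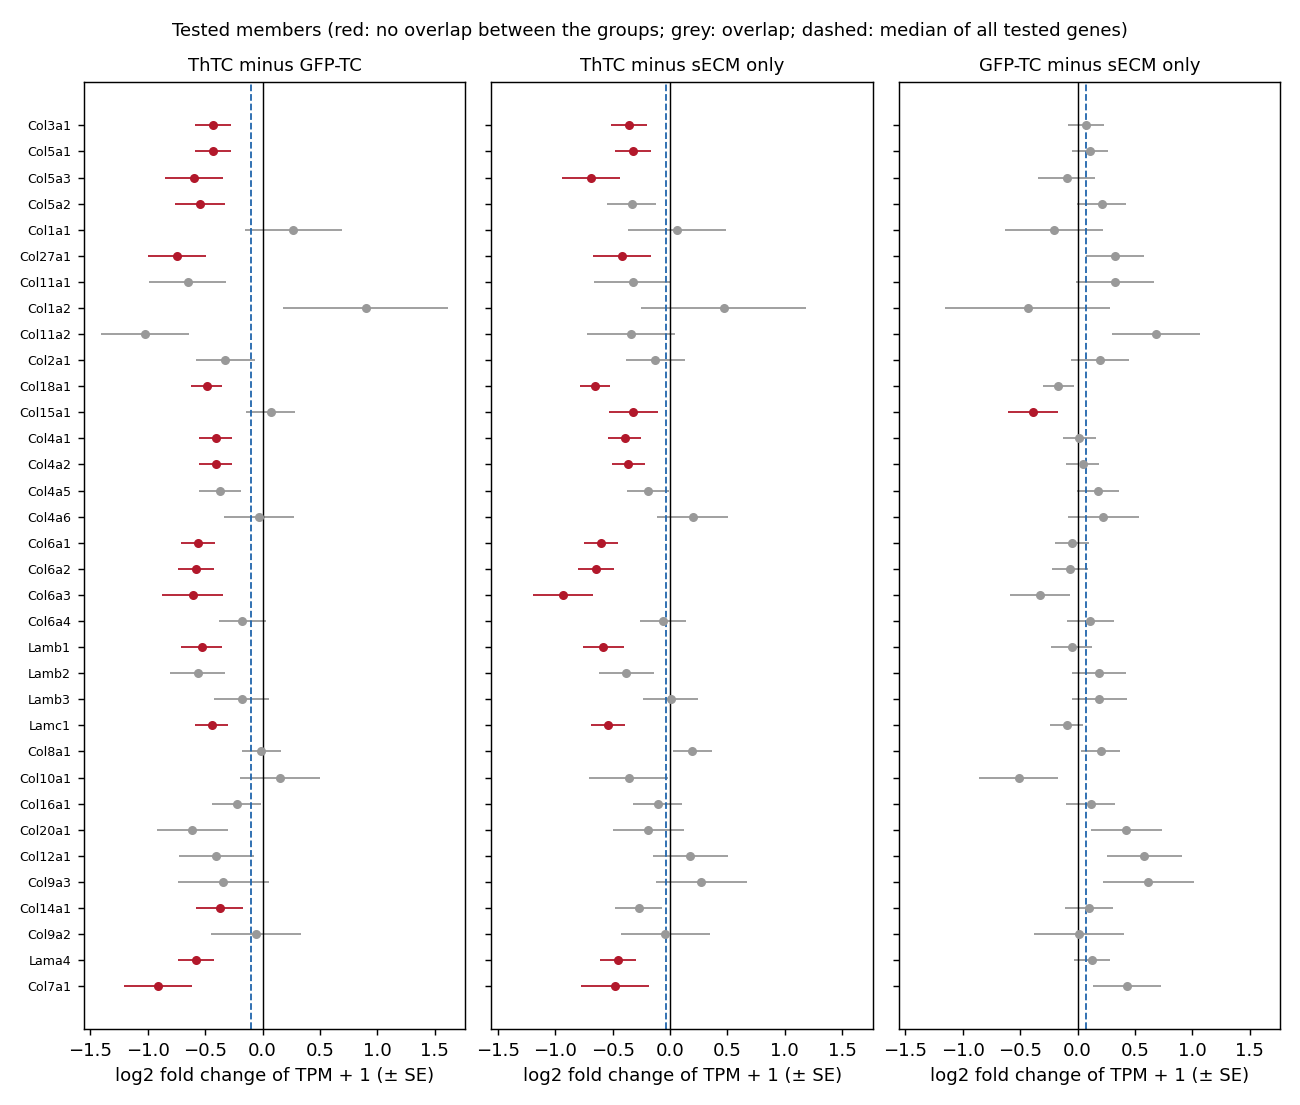
Log2 fold change (on log2 of TPM + 1) of 34 of the 35 tested members in the comparisons of ThTC with GFP-TC, ThTC with sECM only and GFP-TC with sECM only, with bars for the standard error, red where the groups did not overlap, and a dashed line at the median of all tested genes. With ThTC 30 of the members drawn lie below 0 against GFP-TC and 27 against sECM only, while 11 lie below 0 for GFP-TC against sECM only.

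The 6 members with the smallest p in this comparison were Col6a1, Col6a2, Lama4, Col18a1, Col7a1 and Lamc1. Each had an adjusted p of 0.316 by limma, and each was lower in all 3 ThTC libraries. Col6a1 averaged 273 ± 33.8 TPM for ThTC, against 403 ± 52.0 TPM for GFP-TC (SD, n = 3 each), a log2 fold change of −0.56 (SE 0.148). Col6a2 averaged 223 ± 35.5 TPM for ThTC, against 332 ± 33.6 TPM for GFP-TC, a log2 fold change of −0.58 (SE 0.156). The collagen VI chains thus stood at 0.677 and 0.671 of their GFP-TC means. Lama4 averaged 26.5 ± 3.35 TPM for ThTC, against 40.3 ± 5.93 TPM for GFP-TC, a log2 fold change of −0.58 (SE 0.156). Col18a1 averaged 369 ± 37.5 TPM for ThTC, against 519 ± 71.9 TPM for GFP-TC, a log2 fold change of −0.49 (SE 0.133). Lamc1 averaged 87.3 ± 9.36 TPM for ThTC, against 119 ± 13.9 TPM for GFP-TC, a log2 fold change of −0.44 (SE 0.146). Col7a1 averaged 7.20 ± 1.02 TPM for ThTC, against 15.3 ± 7.53 TPM for GFP-TC. Its log2 fold change was −0.91 (SE 0.297) with all libraries and −0.55 without GFP-TC 2.

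The comparison of ThTC with sECM only sets the secreting cells against the group whose label names sECM alone. It shares the ThTC libraries with the comparison above. The members' summed TPM was again lower with ThTC, at 3288, 3264 and 2834, against 3706, 4304 and 4789 with sECM only. On the deposited scale these sums did not overlap between the groups. limma called 0 of 35 members and 0% of all tested genes at an adjusted p of 0.05. Of the 35 tested members, 27 had a lower mean TPM with ThTC (77.1%), as did 54.6% of all tested genes. The ThTC values lay below all sECM only values for 15 members (42.9%), against 12.1% of all genes, and above them for 0, against 5.03%. At an unadjusted p of 0.05, 10 members were lower (28.6%) against 5.36% of all genes, and 0 were higher against 1.54%. Without sECM only 3 the first count was 6 (17.1%), against 1.80% of all genes. Of the 22 members averaging 10 TPM or more, 14 did not overlap (63.6%), against 15.0% of all genes at that level.

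The 15 members were Col3a1, Col4a1, Col4a2, Col5a1, Col5a3, Col6a1, Col6a2, Col6a3, Col7a1, Col15a1, Col18a1, Col27a1, Lama4, Lamb1 and Lamc1. The median log2 fold change of the 35 members was −0.33, against −0.032 for all tested genes, and it was −0.20 without sECM only 3. After the median-of-ratios scaling 12 members were lower with no overlap (34.3%), against 7.79% of all genes, and 0 were higher, against 7.70%. A lower mean was found for 26 members (74.3%) on that scale, against 47.3% of all genes. Over all tested genes the split with no overlap was 1077 lower and 1065 higher on that scale, against 1676 and 695 on the deposited scale. Col3a1, Col15a1, Lama4 and Lamb1 overlapped after the scaling, and Lamb2 no longer did.

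Col18a1 had the smallest p of the members against sECM only. It averaged 369 ± 37.5 TPM for ThTC, against 581 ± 62.5 TPM for sECM only (SD, n = 3 each), a log2 fold change of −0.65 (SE 0.133, unadjusted p = 0.00101 and adjusted p = 0.687 by limma). Col6a2 averaged 223 ± 35.5 TPM for ThTC, against 349.9 ± 61.0 TPM for sECM only, a log2 fold change of −0.65. Col6a1 averaged 273 ± 33.8 TPM for ThTC, against 416 ± 67.9 TPM for sECM only, a log2 fold change of −0.60. Lamc1 averaged 87.3 ± 9.36 TPM for ThTC, against 128 ± 22.6 TPM for sECM only, a log2 fold change of −0.54. Lamb1 averaged 164 ± 25.2 TPM for ThTC, against 247 ± 51.1 TPM for sECM only, a log2 fold change of −0.58. These 4 genes had the same adjusted p as Col18a1, since the adjustment ties neighbouring ranks. Col6a3 averaged 13.1 ± 1.32 TPM for ThTC, against 27.4 ± 11.7 TPM for sECM only, at the same adjusted p. Its log2 fold change was −0.93 (SE 0.262), and −0.63 without sECM only 3.

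The comparison of GFP-TC with sECM only sets the control cells against the group whose label names sECM alone. Here the members' levels overlapped: their summed TPM was 3942, 5006 and 3953 with GFP-TC, against 3706, 4304 and 4789 with sECM only. limma called 0 of 35 members and 0% of all tested genes, and 0 members had an unadjusted p under 0.05, against 0.434% of all genes lower and 0.499% higher. Of the 35 members, 11 had a lower mean TPM with GFP-TC (31.4%), as did 26.3% of all genes, and the median log2 fold change was 0.11 against 0.077. The median was −0.038 without GFP-TC 2. Only Col15a1 did not overlap (2.86%), against 1.08% of all genes that were lower with no overlap, and 0 members were higher with no overlap, against 3.15%. Among members averaging 10 TPM or more 0 of 22 were lower with no overlap, against 0.936%. After the scaling Col15a1 was still the member lower with no overlap, against 2.46% of all genes, Col9a3 was higher with no overlap, against 2.04%, and 15 members had a lower mean (42.9%), against 50.2%. The split of all tested genes with no overlap was then 340 lower and 282 higher, against 149 and 436 on the deposited scale.

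Col15a1 averaged 3.83 ± 0.958 TPM for GFP-TC, against 5.23 ± 0.0361 TPM for sECM only (SD, n = 3 each), a log2 fold change of −0.39 (adjusted p = 0.997 by limma) that was −0.22 without GFP-TC 1. The next 5 members by p, all overlapping and all at that adjusted p, were chains of cartilage and fibril surfaces and Col7a1. Col11a2 averaged 7.60 ± 3.56 TPM for GFP-TC, against 4.25 ± 1.85 TPM for sECM only. Col12a1 averaged 6.33 ± 2.68 TPM for GFP-TC, against 3.78 ± 0.987 TPM for sECM only. Col9a3 averaged 4.69 ± 1.84 TPM for GFP-TC, against 2.57 ± 0.136 TPM for sECM only. Col10a1, a chain of growth plate cartilage, averaged 0.54 ± 0.252 TPM for GFP-TC, against 1.297 ± 0.831 TPM for sECM only. Col7a1 averaged 15.3 ± 7.53 TPM for GFP-TC, against 10.5 ± 2.31 TPM for sECM only, a log2 fold change of 0.43 that was 0.076 without GFP-TC 2. Without GFP-TC 2 the log2 fold change of Col11a2 was 0.38 instead of 0.68 and that of Col12a1 0.30 instead of 0.58. Without GFP-TC 3 that of Col9a3 was 0.40 instead of 0.61. For Col10a1 the value was −0.51 with all libraries and −0.32 without sECM only 3, and it was −0.86 without sECM only 1.

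Marker genes of other cell types also differed in level between the groups. The summed TPM of 8 macrophage markers was 2177 to 3511 with ThTC, 979 to 2257 with GFP-TC and 1701 to 2081 with sECM only. Of these markers, 8 of 8 had a higher mean with ThTC than with GFP-TC, while 65.2% of all tested genes had a lower mean. Against sECM only 7 of 8 were higher, and 54.6% of all genes lower. Mrc1 was lower there, averaging 5.30 TPM against 13.2 TPM. In each comparison only Aif1 and Lyz2 were higher with no overlap, against 2.20% and 5.03% of all genes, and limma called 0 of the 8. None of the 8 was at 0 in any library. With the mean log2 level of these markers as a covariate, the members' median log2 fold change was −0.51 for ThTC against GFP-TC (all tested genes −0.27) and −0.40 for ThTC against sECM only (all tested genes −0.11). With that of the neuron and oligodendrocyte markers as a covariate, the medians were −0.41 and −0.32 (all tested genes −0.12 and −0.059). Without ThTC 3 and GFP-TC 3 they were −0.42 and −0.31 (all tested genes −0.13 and −0.10). Mural markers (10 genes) summed to 104.7 to 177.5 TPM for ThTC, 123 to 182 TPM for GFP-TC and 134 to 155 TPM for sECM only. Fibroblast markers (10 genes, of which Mfap5 was at 0 in some libraries) summed to 218 to 423 TPM for ThTC, 289.97 to 418 TPM for GFP-TC and 309 to 340.4 TPM for sECM only. Endothelial markers summed to 113 to 219.6 TPM for ThTC, 126 to 179.8 TPM for GFP-TC and 154 to 181 TPM for sECM only. All 3 sums overlapped between the groups, but some single markers did not, in both directions. Acta2, on the mural list, lay higher with ThTC (19.4, 48.2 and 31.3 TPM) than with sECM only (16.8, 18.8 and 12.0 TPM), with no overlap. Its ThTC and GFP-TC values overlapped. Pdgfrb, a receptor of mural cells and fibroblasts, had 34.7, 31.9 and 32.02 TPM for ThTC, 48.2, 63.5 and 57.2 TPM for GFP-TC, and 46.9, 53.1 and 63.1 TPM for sECM only. Notch3, a mural cell receptor, had 5.05, 5.07 and 5.22 TPM for ThTC, 8.46, 9.62 and 9.83 TPM for GFP-TC, and 9.46, 10.1 and 9.40 TPM for sECM only. Fap, a surface protease of activated fibroblasts, had 16.1, 15.7 and 9.08 TPM for ThTC, 23.4, 25.8 and 18.8 TPM for GFP-TC, and 21.1, 27.4 and 23.3 TPM for sECM only. For these 3 genes and for Postn, a matrix protein also on the fibroblast list, every ThTC value lay below all 6 others. For Postn the margin between ThTC 2 and GFP-TC 3 was narrow. Postn had 51.97, 64.2 and 22.4 TPM for ThTC, 129, 155 and 64.98 TPM for GFP-TC, and 78.7, 141 and 97.5 TPM for sECM only. Lower with no overlap were 2 of 7 tested fibroblast markers in each comparison with ThTC (28.6%). Of 9 tested mural markers, 3 (33.3%) were so against GFP-TC and 2 (22.2%) against sECM only. Over all tested genes the shares were 16.9% and 12.1%. After the median-of-ratios scaling the fibroblast counts were 0 and 2 and the mural counts 4 and 2, against 6.71% and 7.79% of all genes.

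The log2 fold changes of Pdgfrb, Notch3, Fap and Postn were −0.75, −0.75, −0.72 and −1.35 for ThTC against GFP-TC (adjusted p = 0.316 each by limma), and −0.70, −0.80, −0.80 and −1.26 against sECM only (adjusted p = 0.687 each). Of 7 tested fibroblast markers, 6 had a lower mean with ThTC than with GFP-TC, and 6 than with sECM only (85.7% each). Over all tested genes these shares were 65.2% and 54.6%. The medians of the fibroblast markers' log2 fold changes were −0.51 and −0.26, against −0.10 and −0.032 for all tested genes. Of 9 tested mural markers, 5 had a lower mean (55.6%) and 4 a higher mean in each of these comparisons. That was below the share of all genes against GFP-TC and near it against sECM only. The mural medians were −0.12 and −0.20. Thy1, which is also a neuronal gene, made up much of the fibroblast sum, at 68.8, 145 and 319 TPM for ThTC, 31.2, 117 and 243 TPM for GFP-TC, and 128, 65.4 and 72.9 TPM for sECM only. Without Thy1 the fibroblast sum was 149, 192 and 103 TPM for ThTC, 259, 301 and 174 TPM for GFP-TC, and 192 to 275 TPM for sECM only. That sum still overlapped between ThTC and GFP-TC, through ThTC 2 and GFP-TC 3. The part of these cell types in the collagen and laminin levels was not tested beyond those values.

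**Figure D5:**
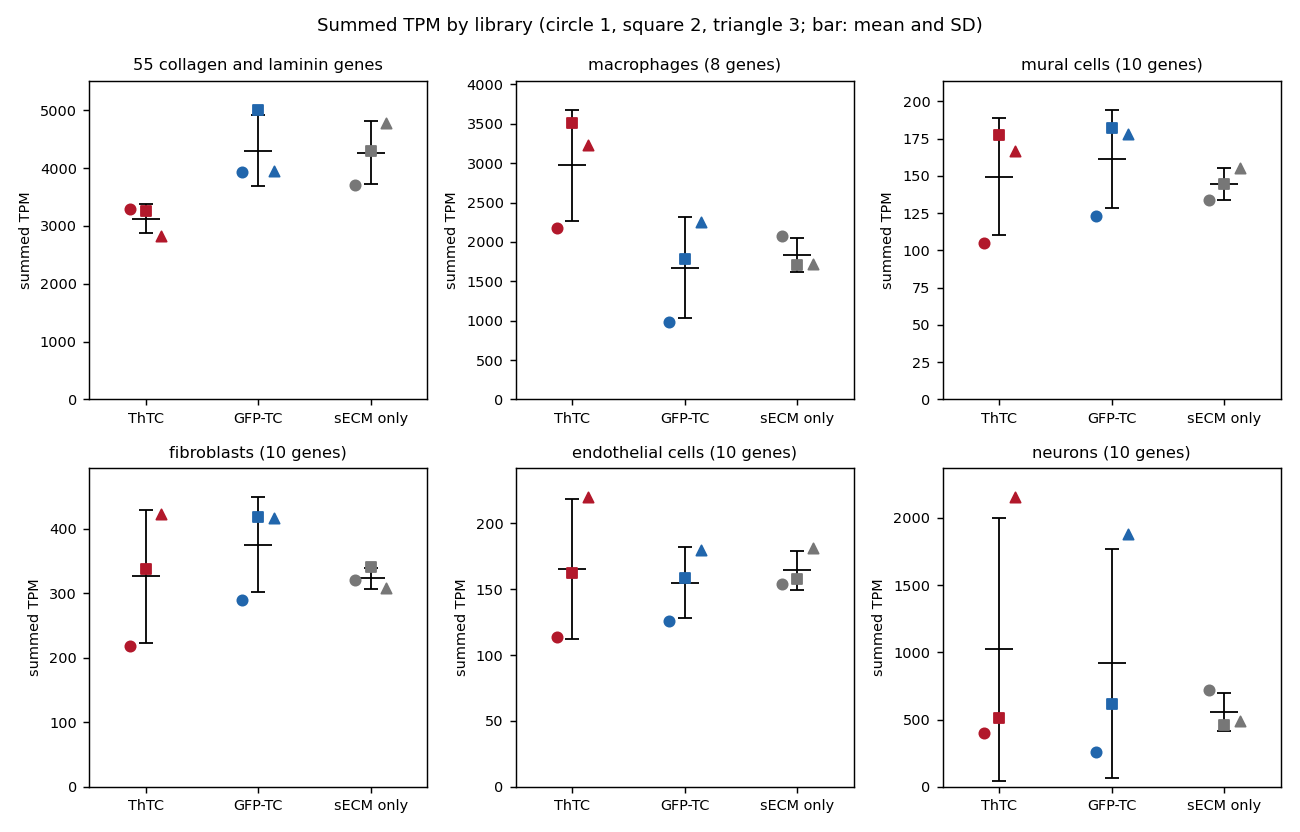
Summed TPM of the 55 collagen and laminin genes and of cell type marker lists in each library, ThTC first, then GFP-TC and sECM only. On the deposited scale the collagen and laminin sums of the ThTC libraries (2834 to 3288) lie below those of all other libraries (3706 to 5006). ThTC 3 and GFP-TC 3 stand highest in the neuron sum. The endothelial, mural and fibroblast sums overlap. Within these lists Pdgfrb, Notch3, Fap and Postn were lower with ThTC with no overlap, and Acta2 was higher than with sECM only with no overlap. Bars give the mean and SD (n = 3).

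Genes that build and hold the same matrix were read from lists of 33 assembly and crosslinking genes, 18 matrix partners and 20 receptors. limma called 0 genes of these lists in any comparison, as it did over all genes. Of 31 tested assembly genes, 23 had a lower mean with ThTC than with GFP-TC (74.2%), against 65.2% of all tested genes, and 6 were lower with no overlap (19.4%), against 16.9%. Their median log2 fold change was −0.17, against −0.10 for all tested genes, and −0.036 against 0.021 after the median-of-ratios scaling. The 6 lower with no overlap were Bmp1, Fkbp10, Mia3, P4ha3, Pxdn and Sec23a. After the scaling 3 of the 31 were lower with no overlap, against 6.71% of all genes. Bmp1, the protease that trims procollagen ends, had 73.6, 74.2 and 67.6 TPM for ThTC, against 84.4, 119.5 and 87.1 TPM for GFP-TC. Pxdn, the peroxidase that crosslinks collagen IV, had 157, 131 and 142 TPM for ThTC, against 188, 194 and 183 TPM for GFP-TC. Serpinh1, the collagen chaperone of the endoplasmic reticulum, overlapped, with 881, 907 and 761 TPM for ThTC, against 1339, 907 and 799 TPM for GFP-TC. Against sECM only, 25 of the 31 had a lower mean with ThTC (80.6%), against 54.6% of all genes, and 9 were lower with no overlap (29.0%), against 12.1%. The median was −0.16, against −0.032 for all genes, and −0.12 against 0.010 after the scaling. On that scale 3 of the 31 were lower with no overlap, against 7.79% of all genes. Between GFP-TC and sECM only, 15 had a lower mean (48.4%), against 26.3%, and the median was −0.00050, against 0.077. None of them was without overlap, against 1.08% of all genes lower and 3.15% higher.

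Of the 18 matrix partners, all tested, 14 had a lower mean with ThTC than with GFP-TC (77.8%), against 65.2% of all tested genes. Their median log2 fold change was −0.30, against −0.10 for all genes, and −0.18 against 0.021 after the scaling. The 5 lower with no overlap (27.8%, against 16.9%) were Agrn, Emilin1, Hspg2, Nid2 and Postn. After the scaling 2 of the 18 were lower with no overlap, against 6.71% of all genes. Hspg2 encodes perlecan, a basement membrane proteoglycan, and had 51.9, 43.3 and 38.1 TPM for ThTC, against 57.95, 70.3 and 57.6 TPM for GFP-TC. Agrn, another such proteoglycan, had 81.5, 83.1 and 87.6 TPM for ThTC, against 93.8, 147 and 109 TPM for GFP-TC. Nid2, which links laminin to collagen IV, had 7.38, 7.30 and 7.89 TPM for ThTC, against 8.61, 10.98 and 9.74 TPM for GFP-TC. Against sECM only, 12 had a lower mean with ThTC (66.7%), against 54.6%, with a median of −0.23, against −0.032. Of the 18, 7 were lower with no overlap (38.9%), against 12.1%, and 5 after the scaling, against 7.79% of all genes. Between GFP-TC and sECM only, 5 had a lower mean (27.8%), against 26.3%, and 1 was higher with no overlap, against 3.15% of all genes. The median was 0.10, against 0.077.

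Of 18 tested receptors, 14 had a lower mean with ThTC than with GFP-TC (77.8%), against 65.2% of all tested genes. Their median log2 fold change was −0.19, against −0.10, and −0.071 against 0.021 after the scaling. Dag1, Itga1 and Itga10 were lower with no overlap (16.7%), a share near the 16.9% of all genes. After the scaling 1 receptor was lower with no overlap, against 6.71% of all genes. Itga1, a collagen-binding integrin chain, had 7.16, 12.3 and 9.02 TPM for ThTC, against 14.9, 19.6 and 13.2 TPM for GFP-TC. Dag1 encodes dystroglycan, which binds laminin, and had 96.2, 89.5 and 98.5 TPM for ThTC, against 105, 125 and 106 TPM for GFP-TC. Lair1, an inhibitory collagen receptor of white blood cells, ran the other way, with 21.1, 27.1 and 28.1 TPM for ThTC, 7.80, 16.3 and 21.1 TPM for GFP-TC, and 15.7, 10.2 and 14.8 TPM for sECM only. Its ThTC values lay above those with sECM only and overlapped those with GFP-TC by a margin under 1 TPM. Against sECM only, 13 receptors had a lower mean with ThTC (72.2%), against 54.6%, with a median of −0.20, against −0.032. With no overlap, 4 were lower (22.2%, against 12.1% of all genes) and 1 was higher, against 5.03%. After the scaling 3 receptors were lower with no overlap, against 7.79% of all genes. Between GFP-TC and sECM only, 8 had a lower mean (44.4%), against 26.3%, and the median was 0.041, against 0.077. Of the receptors, 1 was lower with no overlap (5.56%), against 1.08% of all genes.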

How the data were processed

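Per the labels' protocols, total RNA of the tumour tissue was taken up on a column kit and run on a DNBseq platform. The authors deposited a TPM value with 2 decimals for every gene of a library. The submitters' processing notes name HISAT and the builds GRCm38.p6 and mm10, with no version. How reads were quantified, with which annotation, filters and strand setting, is not given in the sources used here. The TPM totals were equal to within 0.74, so depth is unknown, no count model was used and no counting interval is given. Libraries were grouped by the treatment label, and 0 columns of sample values were left unused. No 2 libraries of a group were duplicates: at most 0.419% of tested genes had equal values.

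A gene entered the test when at least 3 of 9 libraries reached 1 TPM. Values were tested on log2(TPM + 1) with limma 3.58.1 in R 4.3.3 (lmFit and eBayes with trend), with all 9 libraries in the same fit and Benjamini-Hochberg adjustment over all 13829 tested genes at 0.05. This log scale understates the change of low genes. No overlap means that all 3 values of a group lay below, or all above, those of the other. The members and lists were chosen with earlier results of these data known. The rule for members named with a fold change took, per comparison, those called and then those with the smallest p, up to 6. Levels were given for the main chains, the laminins and the highest and lowest member of each family, and at most 3 genes per list. Named outside the rule, after their values were seen, were members and list genes given by name as without overlap, the members with a higher mean with ThTC, Col4a5, Col9a2, Tagln, Acta2, Dcn, Mfap5, Pdgfrb, Notch3, Fap, Thy1 and Cspg4. Alternatives changed the pseudocount, filter, scaling, covariates and libraries. The fit was also run on simulated data in which each gene varied independently, without the brain tissue differences that many genes share here. That run therefore cannot show how the fit behaves on these libraries. The values of 1 member are not reported here, though it stays in the counts and sums.

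Same-numbered ThTC and GFP-TC libraries had deviations from their group means that correlated at 0.743, 0.124 and 0.874 over tested genes, so these numbers were treated as pairs, although the labels do not say what they mean. ThTC 2 and GFP-TC 1 correlated at 0.382. Over all 3 groups, differently numbered libraries correlated at −0.797 (ThTC 1 and GFP-TC 3) to 0.611 (GFP-TC 3 and sECM only 1). The oligodendrocyte sums were 159 and 178 TPM in ThTC 1 and GFP-TC 1, and 2416 and 1997 TPM in ThTC 3 and GFP-TC 3. The part of brain tissue content in these correlations was not tested, and the pairing rests on them alone. The sECM only libraries correlated with ThTC at −0.548, 0.282 and −0.205 and with GFP-TC at −0.527, −0.136 and −0.187, and were not treated as paired. Python 3.11.15 and matplotlib 3.10.9 made the figures. Promoter windows and gene positions are from RefSeq for GRCm38.p6.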

Additional observations from a re-analysis of the deposited data

How the results depend on the processing

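All 337 alternative values of the named members' fold changes kept their direction and their side of the threshold, and limma called 0 members under every alternative fit. Part of these values could not differ. The fold change is the same by design with only the 6 libraries, with a replicate block, or without a library of the group outside the comparison. The named members were also picked by p in these data, and none was called in the main fit, so keeping their side says little. The count of members with no overlap for ThTC against GFP-TC was 10 after median-of-ratios scaling instead of 16, and 16 to 21 with 1 library left out. After scaling that was 28.6%, against 13.1% of all genes. The count was 18 without the filter on low values (32.7%, against 15.7%) and 15 at a mean of 5 TPM or more (62.5%, against 21.2%). Without ThTC 3 and GFP-TC 3 it was 24 (68.6%, against 41.8%). For ThTC against sECM only it was 15 to 21 with 1 library left out. It was 12 after scaling (34.3%, against 15.5% of all genes) and 15 without the filter (27.3%, against 13.9%). It was 14 at a mean of 5 TPM or more (58.3%, against 18.6%) and 21 without ThTC 3 and GFP-TC 3 (60.0%, against 31.2%). For GFP-TC against sECM only it was 1 to 8 with 1 library left out. It was 3 without the filter on low values (5.45%, against 4.29% of all genes) and 0 at a mean of 5 TPM or more (against 3.87%). After scaling it was 2 (5.71%, against 4.50%), and without ThTC 3 and GFP-TC 3 it was 4 (11.4%, against 10.9%). Leaving out ThTC 3 and GFP-TC 3 was chosen after seeing the data, as was the macrophage covariate. With 1 library left out, the share of all tested genes with no overlap also moved, to between 19.1% and 39.8% for ThTC against GFP-TC (members 45.7% to 60.0%), 17.1% and 39.4% for ThTC against sECM only (members 42.9% to 60.0%) and 4.23% and 39.1% for GFP-TC against sECM only (members 2.86% to 22.9%). With 2 libraries against 3, or 2 against 2, no overlap is more frequent by construction.

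With the replicate block in the 6 libraries of ThTC and GFP-TC, 8 of all tested genes were called instead of 0, and 0 members (smallest adjusted p = 0.119 by limma). In the fit of 9 libraries the replicate block gave 1 called gene for GFP-TC against sECM only and no member. It changed no other call. The brain tissue covariate gave 2 called genes for ThTC against sECM only, and GFP-TC against sECM only had 1. With 1 library left out, 0 to 1 genes were called in each of these comparisons. With 1 library left out, the members' median log2 fold change was −0.50 to −0.28 for ThTC against GFP-TC and −0.40 to −0.20 for ThTC against sECM only. It was −0.038 to 0.18 for GFP-TC against sECM only. It reversed only without GFP-TC 2 (−0.038). Without the filter, which adds genes near 0, it was −0.21 for ThTC against GFP-TC and −0.082 for ThTC against sECM only. The cause of these changes was not tested. With 3 libraries a group, an exact permutation test of a single value cannot give a p below 0.1, and TPM holds no depth from which the precision of low members could be read.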
